A study of Mus musculus with 12 samples.

Results

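Fam131c, Hpdl, Cpne5, Lctl, Slc9a3r1, Slc12a9, 1700037H04Rik and 4931406C07Rik are 8 mouse genes about which little is known in brown fat, taken from 54356 genes in the deposited tables. They were chosen by their summed read level, or the make-up of their transcripts, in cold-exposed against control animals of these same libraries. All 8 were among the 13876 genes with enough reads to be fitted. Since that difference selected them, it is described for these 8 and carries no p-value. Levels in ctrl and cold did not overlap for 7 of the 8 genes, against 16.3% of the 13876 fitted genes. A difference of at least 2-fold held for 6 of the 8, against 6.17% of fitted genes. For 1700037H04Rik the summed level of the gene overlapped between the groups, and the difference lay in which of its transcripts held the reads.

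Poly(A) RNA was read from whole interscapular brown adipose tissue of 12 male wild type C57BL/6N mice, 20 weeks old, 1 library per animal. The 6 animals labelled cold (mouse numbers 4, 7, 11, 12, 15 and 16) had been kept alone at 4 °C for the final 24 h, and the 6 labelled ctrl carry mouse numbers 2, 5, 6, 9, 10 and 14. The labels attach the cold treatment text to both groups and give 22 to 24 °C for the colony, so the text is read as meant for the cold animals. How ctrl animals were housed on the last day is not given separately, and single housing and cold cannot be told apart. The series text speaks of n = 3 in the cold against 6 labelled animals, and the extraction text of another fat depot than brown fat. The sample labels were followed on both points.

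Brown adipose tissue burns fat and glucose to make heat. Cold is sensed through the skin, sympathetic nerves release noradrenaline onto brown adipocytes, and beta-adrenergic receptors raise cyclic AMP, which releases fatty acids and switches on genes of heat production. The 8 genes have no settled place in that scheme. They encode an orphan protein (Fam131c), a mitochondrial enzyme (Hpdl), a calcium-dependent membrane-binding protein (Cpne5), a klotho-like membrane protein (Lctl), a scaffold under the plasma membrane (Slc9a3r1), an orphan relative of ion cotransporters (Slc12a9) and the mouse counterparts of human C20orf27 (1700037H04Rik) and C11orf54 (4931406C07Rik).

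Libraries held 15.98 to 31.4 M estimated reads. Levels are in CPM, read counts divided by library size after TMM scaling, and the log2 fold change with its standard error (SE) comes from an edgeR fit across all genes. In that fit 4380 genes, 31.6%, passed an adjusted p of 0.05, 2246 of them higher and 2134 lower in cold. Scaling by plain library totals gave 2895 higher and 1409 lower and moved the median log2 fold change of all genes from -0.01 to 0.08. Summed brown adipocyte markers ran from 11770 to 18089 CPM in ctrl and from 17558 to 22536 CPM in cold. Of these 10 markers 3 were higher (Cidea, Fabp3 and Elovl3), 1 was lower and 6 did not pass. Ucp1, which held the largest part of the sum, did not pass (log2 fold change 0.22, adjusted p = 0.135, edgeR). Adipoq was the lower one, at -0.63 (adjusted p = 1.41e-04, edgeR). None of 7 epithelial markers passed the filter. Summed skeletal muscle markers ranged from 134 to 1731 CPM in ctrl and from 188 to 5956 CPM in cold, with the highest value in cold 15, and 0 of 12 muscle markers passed the edgeR test (0 at an unadjusted p under 0.05). DESeq2 called 0 (2 unadjusted) and limma-voom 0. Every animal has its own mouse number, so p-values measure the spread between animals. Mural cell markers summed to 565 to 646 CPM in ctrl and 410.2 to 529 CPM in cold, and 2 of the 6 passed, both lower. Rgs5, which fell from 297 ± 23.9 to 191 ± 24.0 CPM (adjusted p = 5.81e-05, edgeR), held the largest part of that sum, while Acta2 (0.08) and Tagln (0.34) had log2 fold changes above 0 and did not pass. Of 7 fibroblast and adipocyte progenitor markers 3 were lower and 0 higher, and of 6 endothelial markers 2 were higher and 1 lower. In whole tissue, fewer cells of a type and less RNA per cell cannot be told apart.

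The sequences below belong to transcript models of these genes and to RefSeq start sites, which need not be the starts of those models. The transcript results themselves rest on the deposited estimated counts. In 2 of the genes most reads in cold animals were assigned to a transcript that begins inside an intron. The following lines show where that intronic stretch meets the next exon, in GENCODE M21 on GRCm38, read on the minus strand, with the last 40 intronic bases in capitals and the first 40 exonic bases in lower case. The first lies at chr2:131148255-131148334 and the second at chr17:29183988-29184067.
1700037H04Rik-204: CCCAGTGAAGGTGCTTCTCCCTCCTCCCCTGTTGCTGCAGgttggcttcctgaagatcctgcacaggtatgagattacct
Cpne5-204: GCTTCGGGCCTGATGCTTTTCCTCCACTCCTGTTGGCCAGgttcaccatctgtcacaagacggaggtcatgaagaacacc
Both intronic stretches end in AG, the letters that close nearly all introns, and the transcript models read through them into the exon.

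The 250 bases before the RefSeq start (GRCm38.p6) are shown for the genes whose window holds no annotated exon. Both strands were searched for 7 motifs, and matches stand in capitals. Those of cyclic AMP and nuclear receptor signalling were the CRE (TGACGTCA), its half-site (TGACG), which lies inside it, the ERR element (TCAAGGTCA) and the DR1 element, a direct repeat of a nuclear receptor half-site. The other 3 were the E-box (CACGTG), and 2 motifs common in promoters, the GC box (GGGCGG) and the CCAAT box, whose letters are its name. The windows are chr4:141367942-141368191 (plus strand) for Fam131c, chr11:115163091-115163340 (plus) for Slc9a3r1, chr9:64116897-64117146 (plus) for Lctl, chr2:131160082-131160331 (minus) for 1700037H04Rik and chr9:15301608-15301857 (minus) for the internal start of 4931406C07Rik.
Fam131c: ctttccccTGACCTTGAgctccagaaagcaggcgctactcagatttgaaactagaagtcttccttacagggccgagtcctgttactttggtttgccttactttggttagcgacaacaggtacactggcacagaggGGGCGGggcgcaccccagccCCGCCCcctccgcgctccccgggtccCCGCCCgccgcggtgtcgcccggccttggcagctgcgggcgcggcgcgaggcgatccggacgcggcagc
Slc9a3r1: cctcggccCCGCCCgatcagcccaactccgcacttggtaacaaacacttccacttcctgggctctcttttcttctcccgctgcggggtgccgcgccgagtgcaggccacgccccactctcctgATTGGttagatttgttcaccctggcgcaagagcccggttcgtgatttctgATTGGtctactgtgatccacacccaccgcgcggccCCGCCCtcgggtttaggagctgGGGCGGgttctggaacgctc
Lctl: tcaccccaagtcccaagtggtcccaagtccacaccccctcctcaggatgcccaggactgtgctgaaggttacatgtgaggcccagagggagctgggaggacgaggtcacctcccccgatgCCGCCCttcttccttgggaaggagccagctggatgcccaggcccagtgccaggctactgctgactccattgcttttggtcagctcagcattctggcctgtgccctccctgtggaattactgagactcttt
1700037H04Rik: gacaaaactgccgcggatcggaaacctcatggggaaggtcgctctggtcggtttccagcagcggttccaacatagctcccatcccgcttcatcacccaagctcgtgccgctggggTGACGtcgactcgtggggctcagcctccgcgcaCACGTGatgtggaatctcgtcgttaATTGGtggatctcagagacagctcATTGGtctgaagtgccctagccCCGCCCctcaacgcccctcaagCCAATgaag
4931406C07Rik: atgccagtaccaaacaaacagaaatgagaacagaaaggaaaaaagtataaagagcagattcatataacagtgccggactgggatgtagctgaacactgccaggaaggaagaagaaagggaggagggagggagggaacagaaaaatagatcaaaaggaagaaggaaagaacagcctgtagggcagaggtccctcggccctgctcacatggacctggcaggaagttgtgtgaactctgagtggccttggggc
The Fam131c window held 1 ERR element, on the minus strand 242 to 234 bases before the start, a sequence found in 0.387% of 32851 RefSeq promoter windows of this length, and 3 GC boxes. The Slc9a3r1 window held 2 CCAAT boxes and 3 GC boxes, and the Lctl window 1 GC box. The 1700037H04Rik window held a CRE half-site, an E-box, 3 CCAAT boxes and 1 GC box. It lies before the RefSeq start at chr2:131160081, while 1700037H04Rik-202 begins at chr2:131160020 and 1700037H04Rik-204 far downstream, at chr2:131149028. The internal 4931406C07Rik window held none of the 7 motifs. It lies before the RefSeq start at chr9:15301607, while 4931406C07Rik-201 begins further downstream, at chr9:15301556. Over all windows the shares were 1.55% for CRE, 17.8% for its half-site, 0.0335% for DR1, 6.02% for the E-box, 33.8% for the CCAAT box and 32.7% for the GC box. The motifs were chosen after the sequences had been seen, so these shares, that of the ERR element included, cannot weigh a match. A match is a description of letters, not a binding site. The GC box, present in each printed window but the last, is common among all promoters.

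Cold animals had more RNA of Cpne5, Fam131c, Slc9a3r1, Hpdl and 4931406C07Rik and less of Lctl and Slc12a9. For these 7 of 8 genes the lowest value of the higher group exceeded the highest value of the other, a separation found in 16.3% of the 13876 fitted genes (8.92% with cold higher, 7.37% with cold lower). In 6 of 8 genes the fitted difference was at least 2-fold, which held for 6.17% of fitted genes. Both counts describe the picking of the genes and nothing is read from them. Ranked by size of difference among the 13876 genes, Cpne5 was at 11, Fam131c at 44, Lctl at 63, Slc9a3r1 at 171, Hpdl at 315, Slc12a9 at 622, 4931406C07Rik at 1591 and 1700037H04Rik at 5377.

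**Figure D1:**
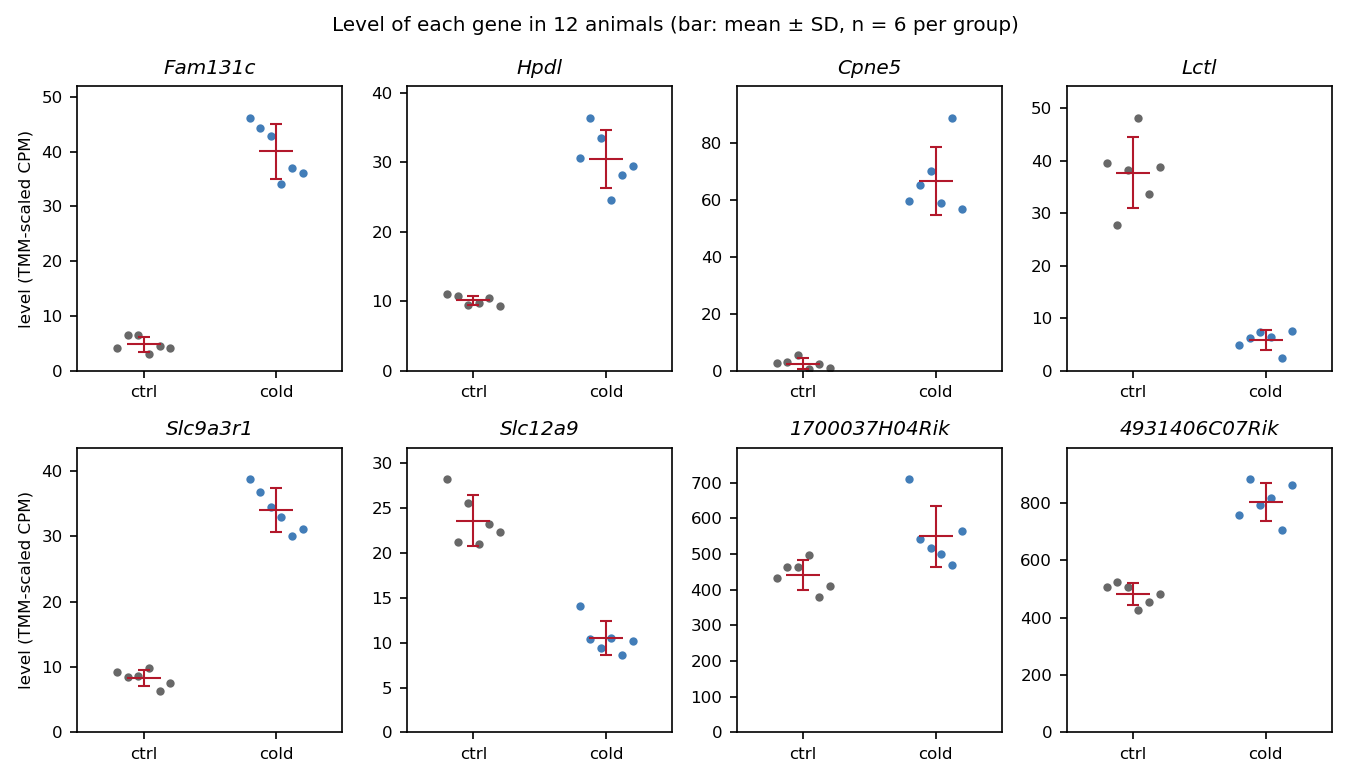
Level of each of the 8 genes in TMM-scaled CPM (vertical axes, each starting at 0) for 6 ctrl and 6 cold animals. Points are animals, and the red mark and bar are the group mean ± SD. The groups are apart for all genes except 1700037H04Rik, where cold ran from 468 to 710.05 CPM and ctrl from 380.3 to 496 CPM.

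Fam131c (ENSMUSG00000006218, chr4:141368220-141384175, plus strand, 1 annotated transcript) encodes a protein of unknown function. Its level was 3.14 CPM in the lowest, 4.35 at the median and 6.51 in the highest ctrl animal, and 34.02, 39.9 and 46.2 CPM in cold. The lowest cold animal was above every ctrl animal by a wide margin. The group means of 4.83 ± 1.38 and 40.1 ± 5.03 CPM (SD, n = 6 each) were 8.31-fold apart, and the fitted log2 fold change was 3.04 ± 0.16 (SE). Between 55 and 164 reads per ctrl library and 620 and 1430 per cold library lay behind these values.

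Hpdl (ENSMUSG00000043155, chr4:116819904-116821707, minus strand, 1 transcript) encodes a mitochondrial relative of 4-hydroxyphenylpyruvate dioxygenase that feeds the ring of coenzyme Q. The ctrl animals lay closely together, at 9.34, 10.1 and 11.0 CPM for the lowest, median and highest, and the cold animals at 24.5, 30.03 and 36.4 CPM. The spread in ctrl was the smallest of the 8 genes, with a coefficient of variation of 6.94%, against 13.7% in cold. The means were 10.1 ± 0.703 and 30.4 ± 4.16 CPM (SD, n = 6 each), a 3.00-fold difference, with 1.58 ± 0.10 (SE) as log2 fold change.

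Cpne5 (ENSMUSG00000024008, chr17:29155556-29238167, minus strand, 7 transcripts) encodes copine 5, of a family that binds phospholipid membranes when calcium is present. It was barely present in ctrl, at 0.513, 2.46 and 5.70 CPM for the lowest, median and highest animal, with 9 to 144 reads per library. In cold it stood at 56.8, 62.4 and 88.7 CPM with 974 to 2029 reads, so that the lowest cold animal had 9.97 times the level of the highest ctrl animal. The means were 2.56 ± 1.81 and 66.5 ± 11.9 CPM (SD, n = 6 each), 26.0-fold apart, and the log2 fold change was 4.64 ± 0.40 (SE). The size depends on the few ctrl reads: it was 4.01 in animals with mouse numbers up to 7 and 5.66 in those with numbers 9 and above, where ctrl levels were lower. The highest cold value, 88.7 CPM, came from cold 15, the library with most muscle marker RNA. With the muscle markers as a covariate the log2 fold change was 4.68, and without ctrl 2 and cold 15 it was 4.53.

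Lctl (ENSMUSG00000032401, chr9:64117147-64138118, plus strand, 6 transcripts) encodes lactase-like protein, a glycoside hydrolase family member also called gamma-klotho. It was lower in every cold animal than in any ctrl animal. The ctrl values were 27.7, 38.6 and 48.1 CPM for the lowest, median and highest animal, and the cold values 2.45, 6.31 and 7.52 CPM. The means of 37.7 ± 6.79 and 5.82 ± 1.91 CPM (SD, n = 6 each) gave -2.71 ± 0.23 (SE) as log2 fold change, a level 6.48-fold higher in ctrl. The lowest value, 2.45 CPM, was again in cold 15, and without ctrl 2 and cold 15 the log2 fold change was -2.53. With the muscle markers as a covariate it was -2.64.

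Slc9a3r1 (ENSMUSG00000020733, chr11:115163341-115181181, plus strand, 1 transcript) encodes NHERF1, a PDZ-domain scaffold that ties membrane transporters and receptors to ezrin and the actin cortex. Its ctrl values were 6.29, 8.54 and 9.87 CPM for the lowest, median and highest animal. The cold values, 29.99, 33.7 and 38.7 CPM, were all above them. The means were 8.33 ± 1.26 and 34.003 ± 3.35 CPM (SD, n = 6 each), which is 4.08-fold, and the log2 fold change was 2.03 ± 0.11 (SE).

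Slc12a9 (ENSMUSG00000037344, chr5:137314558-137333597, minus strand, 4 transcripts) belongs by sequence to the cation-chloride cotransporters but has no agreed transport activity. It was lower in cold, with ctrl values of 20.99, 22.8 and 28.2 CPM and cold values of 8.61, 10.3 and 14.1 CPM for the lowest, median and highest animal. The groups did not overlap, and cold 4 stood above the other 5 cold animals. The means were 23.6 ± 2.81 and 10.5 ± 1.88 CPM (SD, n = 6 each), 2.24-fold higher in ctrl, and the log2 fold change was -1.16 ± 0.11 (SE).

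1700037H04Rik (ENSMUSG00000027327, chr2:131146324-131160081, minus strand, 7 transcripts) encodes a protein of little known function, and its level depended on how transcripts were weighed. Its ctrl values were 380.3, 449 and 496 CPM and its cold values 468, 529 and 710.05 CPM for the lowest, median and highest animal, so the groups overlapped. From means of 441 ± 42.1 and 549.96 ± 85.2 CPM (SD, n = 6 each) the fit gave 0.32 ± 0.10 (SE) as log2 fold change. When the fit took the deposited effective lengths into account the log2 fold change was 0.09. The mix of its transcripts differed between the groups, as described further on.

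4931406C07Rik (ENSMUSG00000031938, chr9:15283337-15306448, minus strand, 9 transcripts), whose human counterpart is an ester hydrolase, was higher in every cold animal than in any ctrl animal. The ctrl values were 426, 494 and 525 CPM and the cold values 705, 805 and 883 CPM for the lowest, median and highest animal. The means were 483 ± 37.7 and 803 ± 65.7 CPM (SD, n = 6 each), 1.66-fold apart, and 0.73 ± 0.08 (SE) as log2 fold change. Its reads numbered 7372 to 12991 per ctrl library and 14726 to 23499 per cold library, so counting error is small here.

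Per kilobase of transcript, the scale on which levels of different genes can be set side by side, 1700037H04Rik led in ctrl at 308 ± 29.4 CPM per kb (SD, n = 6), followed by 4931406C07Rik at 188 ± 14.7 and Lctl at 18.4 ± 3.31. Slc12a9 (7.40 ± 0.882), Hpdl (5.62 ± 0.390), Slc9a3r1 (4.33 ± 0.656), Fam131c (3.37 ± 0.960) and Cpne5 (1.05 ± 0.738 CPM per kb) came after. Among genes next to each other in the ctrl order, the ranges of mean ± SD overlapped for Slc9a3r1 and Fam131c. In cold the order was 1700037H04Rik at 384 ± 59.6, 4931406C07Rik at 313 ± 25.6, Fam131c at 28.0 ± 3.51, Cpne5 at 27.2 ± 4.86, Slc9a3r1 at 17.7 ± 1.74, Hpdl at 16.9 ± 2.30, Slc12a9 at 3.30 ± 0.588 and Lctl at 2.83 ± 0.932 CPM per kb (SD, n = 6). Cpne5 thus went from the last to the fourth place and Lctl from the third to the last. In cold these ranges overlapped for the first and second, Fam131c and Cpne5, Slc9a3r1 and Hpdl, and Slc12a9 and Lctl.

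The genes differed in how much animals of 1 group varied. The biological coefficient of variation, edgeR's estimate of spread beyond counting, was 48.7% for Cpne5, above that of 96.5% of fitted genes, and 25.7% for Lctl, above 79.1%. It lay between 13.0% for Hpdl and 18.0% for Fam131c in the other 6 genes, where the value over all genes was 20.6%. The standard deviation of log2 CPM of Cpne5 was 1.13 in ctrl and 0.24 in cold. Lctl showed the opposite order, 0.26 in ctrl and 0.60 in cold, so in both genes the group with few reads varied more.

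Animals with low and high mouse numbers separated on a principal component of all genes, and no batch is labelled. Within mouse numbers up to 7 (3 ctrl, 2 cold) and 9 and above (3 ctrl, 4 cold), the log2 fold changes were 2.98 and 3.24 for Fam131c, 1.69 and 1.55 for Hpdl, -2.67 and -2.77 for Lctl, and 2.12 and 2.02 for Slc9a3r1. They were -1.02 and -1.20 for Slc12a9, 0.47 and 0.25 for 1700037H04Rik, and 0.68 and 0.80 for 4931406C07Rik. The direction was the same in both sets for all 8 genes. For 7 of them the groups did not overlap in these same animals, so no split could have reversed their direction.

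The reads that Salmon assigned to each annotated transcript showed a change of make-up in 2 genes. Salmon spreads reads over transcripts that share exons, so transcript shares are model estimates, and like the gene levels they are described without a test. In 1700037H04Rik, the coding transcript 1700037H04Rik-202 held 66.6 ± 3.22% of the gene's reads in ctrl and 34.4 ± 2.34% in cold (SD, n = 6 each). The transcript 1700037H04Rik-204, annotated as retaining an intron, held 28.1 ± 3.43% in ctrl, ranging from 23.9% to 33.9%, and 61.8 ± 2.17% in cold, ranging from 59.3% to 65.8%. All cold animals were above all ctrl animals for 1700037H04Rik-204 and below them for 1700037H04Rik-202.

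In reads, 1700037H04Rik-202 had 294 ± 31.1 CPM in the ctrl animals and 189.5 ± 34.05 CPM in cold, while 1700037H04Rik-204 had 124 ± 20.4 and 339.9 ± 53.7 CPM (SD, n = 6 each). The reads of the gene in cold thus held less of the coding transcript and more of the intron-retaining one. 1700037H04Rik-204 begins at chr2:131149028, 10992 bases downstream of the 5′ end of 1700037H04Rik-202, and has 734 bases, chr2:131148295-131149028, that the coding transcript lacks. The junction printed above is its end of that stretch. It has no annotated coding sequence and shares 913 bases with 1700037H04Rik-202, so the 734 intronic bases and the exons missing from it are what separate the 2 models. Whether these reads come from an unspliced intron or from a start inside it cannot be told apart here. By share of TPM, which corrects for length, 1700037H04Rik-204 made up 20.8% in ctrl and 53.1% in cold.

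In 4931406C07Rik the difference was between transcript models with different annotated starts, and the use of start sites was not measured. The transcript 4931406C07Rik-201, whose 5′ end lies 4611 bases downstream of that of 4931406C07Rik-202, held 59.9 ± 8.16% of reads in ctrl and 83.5 ± 4.50% in cold (SD, n = 6 each). The share of 4931406C07Rik-202 was 36.4 ± 8.24% in ctrl and 14.3 ± 4.41% in cold. The ranges did not overlap for either transcript, with 51.4% to 73.6% in ctrl and 79.8% to 91.7% in cold for 4931406C07Rik-201. Both have the same coding blocks, and they differ by 43 bases found in 4931406C07Rik-201 and 131 bases found in 4931406C07Rik-202, so the estimate rests on those first exons. In CPM 4931406C07Rik-201 went from 291 ± 58.4 to 671 ± 65.6 and 4931406C07Rik-202 from 174 ± 30.5 to 115 ± 35.2 (SD, n = 6 each). Unlike its share, the CPM of 4931406C07Rik-202 overlapped between the groups, at 116 to 199 in ctrl and 47.0 to 142 in cold. The higher level of the gene in cold thus lay in reads assigned to 4931406C07Rik-201, the model with the internal start.

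Most Cpne5 reads were assigned to a model without coding sequence in both groups. Cpne5-204, annotated as retaining an intron, held 67.2 ± 14.3% in ctrl and 79.0 ± 2.90% in cold (SD, n = 6 each), ranges that overlap. Its 5′ end lies 54064 bases downstream of that of the full coding transcript Cpne5-201, it has 76 intronic bases at chr17:29184028-29184103, and it shares 2256 bases with Cpne5-201. Cpne5-201 held 3.22 ± 4.10% in ctrl and 7.22 ± 1.59% in cold, and the shorter coding Cpne5-205 held 9.13 ± 7.83% and 13.3 ± 2.71%. Cpne5-203 held 17.5 ± 15.4% in ctrl, on 1.10 to 9.37 reads per library, and 0.321 ± 0.168% in cold. In CPM, Cpne5-204 went from 1.74 ± 1.41 to 52.5 ± 9.45 and Cpne5-201 from 0.111 ± 0.191 to 4.84 ± 1.60, so both the truncated and the full model were higher in cold.

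The other genes showed no such shift. Fam131c, Hpdl and Slc9a3r1 have 1 annotated transcript each. Slc12a9-201, the main coding transcript, held 94.1 ± 1.01% of reads in ctrl and 94.4 ± 1.23% in cold (SD, n = 6 each). Lctl-201 held 88.5 ± 1.68% in ctrl and 79.5 ± 19.4% in cold, where cold 4 was at 43.9% and had 36.2% on Lctl-203, a transcript annotated as a target of nonsense-mediated decay. Only 56 to 151 Lctl reads per cold library lie behind those shares.

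**Figure D2:**
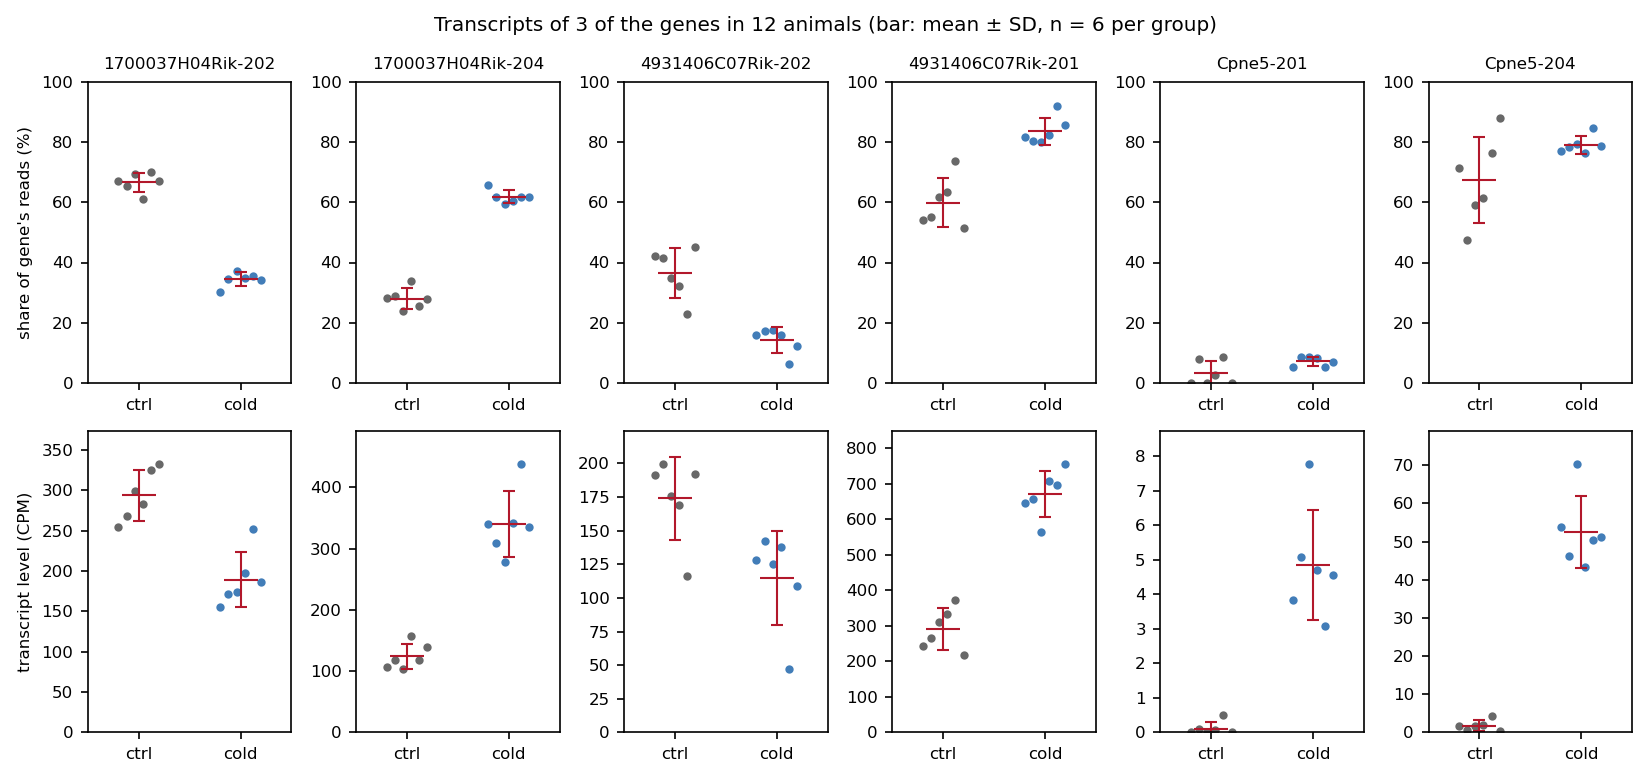
Transcripts of 1700037H04Rik, 4931406C07Rik and Cpne5 in 6 ctrl and 6 cold animals, as the share of the gene's reads in percent (top row) and as CPM (bottom row), with group mean ± SD in red. The share of 1700037H04Rik-204 lies at 59.3% or above in cold and 33.9% or below in ctrl, with 1700037H04Rik-202 the other way round.

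Relatives and pathway partners of the genes were tested with edgeR's quasi-likelihood test, adjusted by Benjamini-Hochberg over all 13876 genes. Of 68 such genes 51 could be tested, 10 were higher and 8 lower in cold, and 33 did not pass. The 35.3% that passed stand beside 31.6% over all genes, and their median log2 fold change was 0.03 against -0.01. Calls in this comparison were 16.2% higher and 15.4% lower over all genes.

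For Fam131c, the single tested relative, Fam131a, did not pass (log2 fold change 0.24 ± 0.27 SE, adjusted p = 0.545, edgeR). Among copines 1 of 5 tested genes was higher and 0 lower, or 20.0% against 31.6% over all genes. Cpne3 rose from 26.7 ± 4.47 to 35.1 ± 5.44 CPM, or 0.39 ± 0.12 in log2 (adjusted p = 0.0203, edgeR), against 4.64 for Cpne5. Without cold 7 that call was lost, at 0.35 and an adjusted p of 0.0522 (edgeR). For Lctl, the single tested klotho relative was Klb, the co-receptor of FGF21, which stood at -0.23 ± 0.14 (adjusted p = 0.238, edgeR).

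Slc9a3r2, which encodes NHERF2, the sister scaffold of Slc9a3r1, fell from 139.8 ± 19.8 to 109 ± 7.55 CPM, which is -0.36 ± 0.09 in log2 (adjusted p = 0.00517, edgeR). Of 15 tested ERM proteins and binding partners of Slc9a3r1, 1 was higher and 3 were lower, or 26.7% against 31.6% over all genes. The receptor for parathyroid hormone, Pth1r, fell by 0.65 (adjusted p = 1.57e-04, edgeR), and the phosphatase Phlpp2 fell by 0.54 (adjusted p = 9.15e-04, edgeR). Podxl, the surface sialomucin podocalyxin, fell by 0.43 (adjusted p = 0.00848, edgeR) and Ctnnb1, beta-catenin, rose by 0.23 (adjusted p = 0.0134, edgeR), with an adjusted p of 0.0560 under the effective length offset (edgeR). Ezr itself, named after its values were seen, stood at -0.15 ± 0.14 (adjusted p = 0.486, edgeR).

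In the family of Slc12a9, 2 of 6 tested cotransporters were higher in cold and 0 lower, while Slc12a9 was lower. That is 33.3% against 31.6% over all genes. Slc12a2, which encodes the sodium-potassium-chloride importer NKCC1, rose from 63.8 ± 17.8 to 209 ± 21.7 CPM, or 1.71 ± 0.17 in log2 (adjusted p = 4.65e-06, edgeR), with no overlap of the groups. Slc12a7, the potassium-chloride exporter KCC4, rose by 0.42 ± 0.09 (adjusted p = 0.00258, edgeR), a call lost with the effective length offset (0.31, adjusted p = 0.214, edgeR). Of 4 tested kinases that regulate these transporters 50.0% passed, against 31.6% over all genes. Wnk1 rose by 0.40 ± 0.10 (adjusted p = 0.00705, edgeR) and Stk39, its substrate kinase SPAK, fell by 0.69 (adjusted p = 0.00353, edgeR).

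Hpdl stands between tyrosine breakdown and coenzyme Q synthesis. In the first list 3 of 5 tested genes were higher: Got1, cytosolic aspartate aminotransferase, rose from 42.3 ± 6.19 to 190.6 ± 23.5 CPM, or 2.17 ± 0.11 in log2 (adjusted p = 2.17e-09, edgeR). Hpd, the enzyme Hpdl resembles, rose from 1.14 ± 0.566 to 4.19 ± 0.91 CPM, by 1.83 ± 0.26 (adjusted p = 5.64e-05, edgeR), and Fah, the last enzyme of the route, rose by 0.53 ± 0.09 (adjusted p = 2.78e-04, edgeR). Got1 also serves the malate-aspartate shuttle. Of 13 genes of coenzyme Q synthesis, 2 were higher and 3 lower, or 38.5% against 31.6% over all genes. Pdss1, which builds the prenyl tail, rose from 12.2 ± 1.40 to 27.2 ± 1.60 CPM, by 1.16 ± 0.08 (adjusted p = 5.74e-08, edgeR), and the methyltransferase Coq3 rose by 0.43 (adjusted p = 6.67e-04, edgeR). Coq8b, an atypical kinase, fell by 0.61 (adjusted p = 1.03e-04, edgeR), Coq2, which joins ring and tail, by 0.27 (adjusted p = 0.00666, edgeR) and the ring hydroxylase Coq6 by 0.25 (adjusted p = 0.0284, edgeR). The Coq2 call was lost with library totals (-0.18, adjusted p = 0.0607, edgeR), as was that of Coq6 (-0.16). The Coq6 call was also lost without any 1 of ctrl 2, ctrl 6, ctrl 14, cold 7, cold 11 or cold 15, at -0.24 to -0.20 and adjusted p of 0.0552 to 0.0677 (edgeR).

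**Figure D3:**
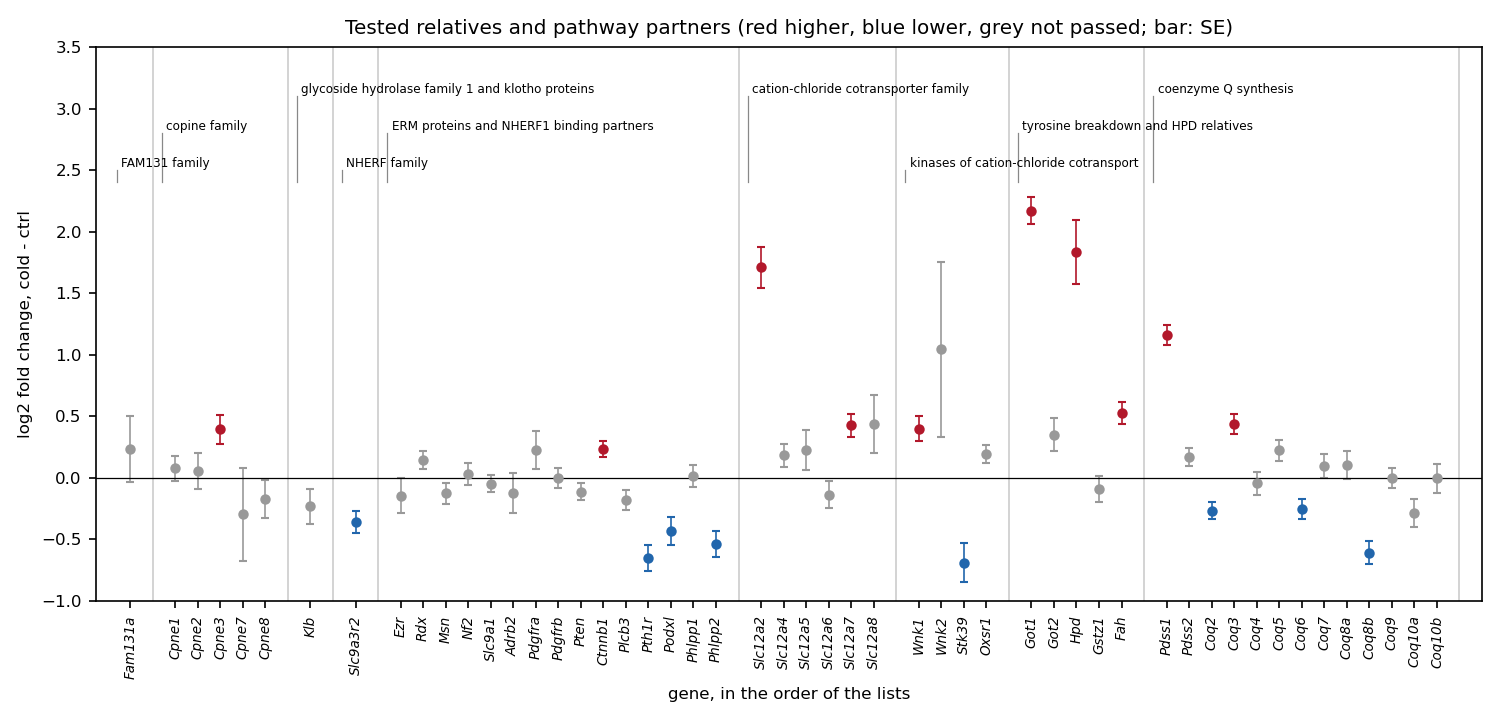
Log2 fold change of cold over ctrl (vertical axis, bar: SE) for the 51 tested relatives and pathway partners, 1 point per gene in the order of the lists, with genes higher in cold in red, lower in blue and not passed in grey. Got1, Hpd, Slc12a2 and Pdss1 are the points above 1 in red.

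Genes lying around the 8 loci were tested in the same fit. Of 73 annotated genes with a body within 50 kb, 28 could be tested, 6 were higher and 6 lower in cold, which is 42.9% against 31.6% over all genes. None of the tested neighbours of Fam131c (2 genes) or Lctl (3 genes) passed in edgeR, where 1 and 0 had an unadjusted p under 0.05. DESeq2 called 1 and 0 and limma-voom 0 and 0. Beside Slc9a3r1, Rab37, a small GTPase of secretory vesicles, rose from 1.10 ± 0.242 to 6.26 ± 1.17 CPM, or 2.49 ± 0.18 in log2 (adjusted p = 6.51e-08, edgeR). Rab37 ends 1105 bases before the start of Slc9a3r1 on the same strand. The log2 fold change of Slc9a3r1 was 2.03 ± 0.11, and its difference from that of Rab37 was not tested. Around Cpne5, Ppil1, a spliceosomal isomerase 12636 bases away, rose by 0.68 ± 0.12 (adjusted p = 4.32e-04, edgeR) and BC004004, 30621 bases away, by 0.65 ± 0.09 (adjusted p = 4.49e-05, edgeR), against 4.64 for Cpne5.

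At 1700037H04Rik, Ap5s1, a subunit of an adaptor complex, rose by 0.45 (adjusted p = 0.0041, edgeR) and Spef1, a microtubule-binding protein of cilia, fell by 0.45 (adjusted p = 0.00418, edgeR). Hspa12b, whose end lies 3 bases from that of 1700037H04Rik on the opposite strand, fell by 0.33 (adjusted p = 0.0243, edgeR). Taf1d, a factor of ribosomal RNA transcription that overlaps 4931406C07Rik on the opposite strand, rose by 0.24 (adjusted p = 0.0162, edgeR). The libraries keep strand, but no source used here says whether the counting used it, so reads of these overlapping or abutting pairs may not be fully separated. Trip6, 154 bases from Slc12a9, fell by 0.29 (adjusted p = 0.0115, edgeR), and Ache, acetylcholinesterase, fell by 1.04 (adjusted p = 0.0221, edgeR) at 1.26 ± 0.299 CPM in ctrl.

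Some calls at these loci were lost when 1 library was left out. Toe1 beside Hpdl fell by 0.38 (adjusted p = 0.0239, edgeR), Cep295 near 4931406C07Rik fell by 0.38 (adjusted p = 0.0484, edgeR) and Tmem104 near Slc9a3r1 rose by 0.21 (adjusted p = 0.0485, edgeR). Toe1 lost its call without ctrl 6, ctrl 9, cold 7, cold 11 or cold 16 (-0.36 to -0.30). Hspa12b lost it without ctrl 5, ctrl 6, cold 7 or cold 15 (-0.31 to -0.24), and Ache without ctrl 6 or cold 12 (-0.93 to -0.90). Cep295 kept it only without ctrl 6, ctrl 10 or cold 15 and ranged from -0.40 to -0.32 elsewhere, and Tmem104 only without cold 4 or ctrl 10, with 0.18 to 0.23 elsewhere. With library totals as scaling Trip6 (-0.20), Hspa12b (-0.25), Toe1 (-0.29) and Cep295 (-0.28) no longer passed, and with the effective length offset Ache (-0.29), Cep295 (-0.11) and Tmem104 (0.37) did not. The Tmem104 call was also lost with limma-voom, with no filter and with the muscle or mouse number covariate (adjusted p of 0.0572 to 0.121), that of Cep295 with limma-voom, no filter or the muscle covariate (adjusted p of 0.0651 to 0.103) and that of Toe1 with no filter (adjusted p = 0.0667, edgeR). Hspb7 near Fam131c, named after its values were seen, ran from 0.673 to 10.2 CPM in ctrl and from 2.56 to 209 CPM in cold and did not pass (3.30 ± 1.16, adjusted p = 0.0538, edgeR).

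**Figure D4:**
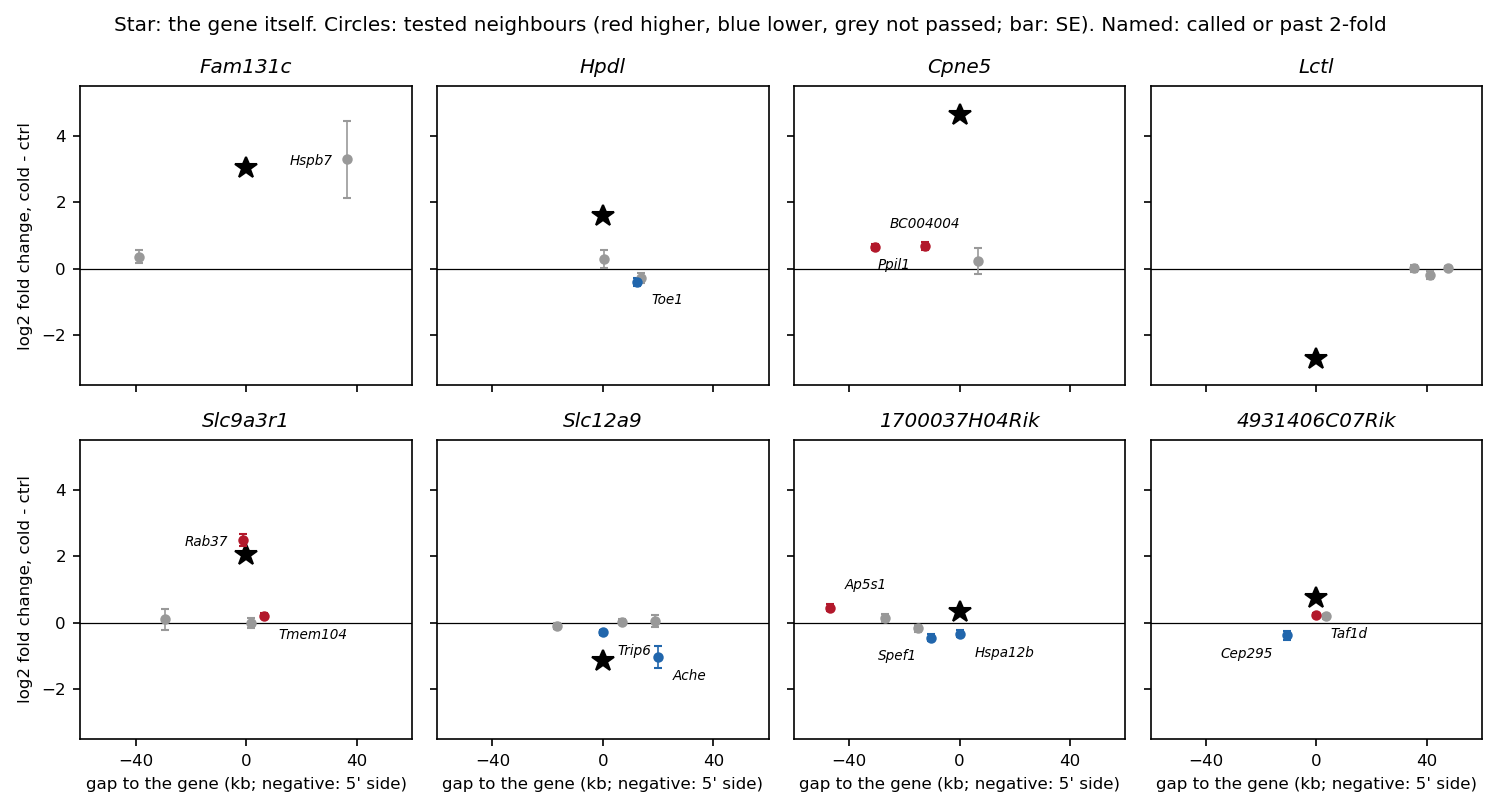
Log2 fold change of cold over ctrl (vertical axis, bar: SE) of tested genes within 50 kb of each of the 8 genes, against the gap in kb to that gene (horizontal axis, negative on its 5′ side). The star is the gene itself, red circles are higher, blue lower and grey not passed. Rab37 beside Slc9a3r1, at 2.49, lies highest among the neighbours that passed.

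Within a group, the levels of the 8 genes were compared pair by pair across 6 animals, 56 correlations in all. After Benjamini-Hochberg adjustment none passed, the smallest adjusted p being 0.379 for Pearson's r and 0.757 for Spearman's rho (exact two-sided permutation tests). Unadjusted, 2 pairs in ctrl and 4 in cold had p under 0.05 for Pearson's r, and 2 other pairs in ctrl and 0 in cold for Spearman's rho. Each r was taken again without the 2 animals farthest from the median of the first-named gene, so which animals were left out depends on that gene alone. Fam131c and Cpne5 in ctrl had r = 0.88 and rho = 0.77 (exact permutation p = 0.0278 and 0.103), and r = 0.87 without ctrl 5 and ctrl 6. Fam131c and Hpdl in cold had r = 0.81 and rho = 0.77 (exact permutation p = 0.0403 and 0.103), and r = 0.96 without cold 4 and cold 12.

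Of the pairs with p under 0.05 for rho, Fam131c and Lctl in ctrl had rho = -0.94 and r = -0.76 (exact permutation p = 0.0167 and 0.0681), and r = -0.97 without ctrl 5 and ctrl 6. Cpne5 and 4931406C07Rik in ctrl had rho = 0.89 and r = 0.80 (exact permutation p = 0.0333 and 0.0542), and r = 0.47 without ctrl 6 and ctrl 9. The other 4 pairs chosen by r had a lower r without 2 animals. Slc9a3r1 and 1700037H04Rik in ctrl had r = 0.90 and rho = 0.83 (exact permutation p = 0.0153 and 0.0583), and r = 0.53 without ctrl 9 and ctrl 10. In cold, without cold 4 and cold 15, r went from 0.93 to 0.06 for Slc12a9 and 1700037H04Rik (rho = 0.60, exact permutation p = 0.0208 and 0.242). For Slc9a3r1 and Slc12a9 it went from 0.78 to 0.00 (rho = 0.71, exact permutation p = 0.0458 and 0.136). For Lctl and 4931406C07Rik it went from 0.82 to -0.39 (rho = 0.60, exact permutation p = 0.0375 and 0.242).

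The genes whose level went along most closely with each of the 8 across the 12 animals, once the group means were removed, were sought among 10065 genes whose mean log2 CPM reached 2. The measure is Pearson's r of group-centred log2 CPM. All points share the libraries, and the highest of 10065 values are high by selection alone, so it is a description with no test. Lctl went with Atat1 (0.96), Fasn (0.92) and Scd1 (0.88). The log2 CPM of Lctl was 1.35 in cold 15 against 2.32 to 2.93 in the other cold animals, and r without cold 15 was not taken. Fam131c went with Rnf215 (0.96), Mapkapk2 (0.96) and Dgat1 (0.94), and Slc9a3r1 with Rpia (0.89), Plin2 (0.87) and Eif4e2 (0.86). Cpne5 went with Tbc1d20 (0.96), Klhl25 (0.95) and Slc25a34 (0.93), and Hpdl with Hook2 (0.85), Mocs3 (0.82) and Gm11696 (0.82).

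For the remaining 3 genes the most alike were Mecr (0.95), Plgrkt (0.94) and Ergic3 (0.94) for Slc12a9, and Sec13 (0.95), Snrpd3 (0.95) and AI837181 (0.94) for 1700037H04Rik. For 4931406C07Rik they were Casp2 (0.91), Clec14a (0.91) and Nek8 (0.88). No gene was named for more than 1 of the 8.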

How the data were processed

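Poly(A) RNA of 12 mouse libraries, 6 ctrl and 6 cold, had been read in strand-specific pairs of 50 nt, per the labels' protocols. Tools listed by the submitters' processing notes are Salmon, cutadapt and bcl2fastq, with the GRCm38 build. Tool versions and the annotation given to Salmon are not given in the sources used here. The deposited tables hold, per transcript, estimated counts (not normalized), TPM and effective lengths, per the file headers.

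The 8 genes, the gene lists and the tests were chosen with earlier results of these data known, and the motifs after the sequences had been seen. Of 140658 transcripts 140137 matched GENCODE M21 by identifier without version, giving 54356 genes. Estimated counts were summed per gene and rounded, since 29.5% to 32.6% of deposited estimated counts per library were not whole. Genes passing filterByExpr (minimum count 10) were scaled by TMM and fitted by edgeR's robust quasi-likelihood method, cold against ctrl, two-sided, Benjamini-Hochberg adjusted, threshold 0.05. The method was tested on simulated data. No sample was dropped, and no 2 libraries were copies (chi-square per degree of freedom of at least 13.8 over 12750 genes). Transcript shares are a transcript's estimated counts over those of its gene. Shares of deposited TPM served as an alternative, since in ctrl 2 transcripts with effective lengths below 50 nt made up 55.2% of TPM, against 2.36% to 8.41% in the others. CPM per kb uses the read-weighted annotated length.

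Besides the 8 genes, the text names from each list the 2 called genes of smallest p, and the others where a count was 5 or fewer, up to 12 called neighbours, and the 3 genes most like each of the 8. Alternatives were RLE scaling, library totals, DESeq2, limma-voom, no filter, a stricter filter (CPM of 1 in 6 animals), an effective length offset, a muscle marker or mouse number covariate, low or high mouse numbers alone, and omitted libraries. RefSeq promoters (GRCm38.p6) matched all 8 symbols. Software was edgeR 4.0.16, DESeq2 1.42.0 and limma 3.58.1 under R 4.3.3, and pandas 2.3.3, matplotlib 3.10.9 and NumPy 2.4.6 under Python 3.11.15.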

Additional observations from a re-analysis of the deposited data

Results flagged for a closer look

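Slc12a9 in cold 4 stood at 14.1 CPM, the highest of the 6 cold animals. Its gap to the next cold animal was 0.648 of the range of the group, above Dixon's 95% critical value for 6 samples. It was the single value singled out among 16 groups (8 genes, 2 conditions), and chance gives about 1 in 20 groups. Without cold 4 the log2 fold change of Slc12a9 was -1.26 against -1.16 with it.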

How the results depend on the processing

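Of 192 alternative values for the 8 fold changes, 0 reversed direction, 190 moved by less than the spread and 2 by more. These fits reuse the libraries on which the genes were chosen, so a kept direction is no independent support. Cpne5 went to 5.66 in mouse numbers 9 and above, and 1700037H04Rik to 0.0875 with the effective length offset. No paired analysis was possible because mouse numbers differ between the groups. Of the 30 named relatives and neighbours, 19 kept their call under all 22 alternatives run for them. Neighbours lower in cold numbered 2 with library totals and 3 to 6 with 1 animal omitted, against 6. Copines higher numbered 0 without ctrl 2 and cold 15 together, and 0 to 1 with 1 animal omitted. ERM partners higher numbered 0 with no filter or the length offset, and 1 to 2 with 1 animal omitted. Cotransporters higher numbered 1 with the length offset. Their kinases higher numbered 2 with library totals or DESeq2, and 1 to 2 with 1 animal omitted. Coenzyme Q genes numbered 4 higher and 1 lower with library totals, 4 higher with the mouse number covariate, and 2 to 4 higher with 1 animal omitted. Cold pairs with unadjusted p under 0.05 numbered 2 with library totals. The SD of log2 CPM of Slc12a9 in ctrl was 0.10 with library totals. By share of TPM, Cpne5-204 held 69.1% in cold, Cpne5-205 17.9% in ctrl and 27.5% in cold, Cpne5-203 0.0941% in cold, Lctl-201 68.9% in ctrl, Slc12a9-201 52.2% and 60.8%, 1700037H04Rik-204 20.8% and 53.1%, and 1700037H04Rik-202 41.8% in cold. The causes of these changes were not tested, beyond TPM shares weighting short transcripts more. Low reads limit Cpne5 in ctrl and Lctl in cold.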

Other observations

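The remaining RefSeq start windows of the 8 genes overlap annotated exons and are given by their motifs alone. The Slc12a9 window held an E-box 106 to 101 bases before the start, a GC box at 64 to 59 and a CCAAT box at 13 to 9. The Hpdl window held 1 GC box and the Cpne5 window 2 GC boxes. Of the distal starts of 4931406C07Rik, the one used by 4931406C07Rik-202 had 2 GC boxes and the other an E-box. The window before the internal RefSeq start, which is not the exact start of 4931406C07Rik-201, had none of the motifs. The G and C content was 68.8% before the start of 4931406C07Rik-202 and 48.8% before the internal start, the lowest of the 10 windows. It was 76.4% before the RefSeq start of Cpne5, the highest. That start, chr17:29237790, is not the start of Cpne5-204, chr17:29184103, which held most Cpne5 reads in both groups.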
